A study of Mus musculus with 16 samples.

Results

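Learned helplessness is a rodent model of stress coping in which animals exposed to shocks they cannot escape later fail to escape shocks that they could. The hippocampal transcriptome of mice that became helpless (LH, 4 mice) was compared with that of controls (Ctrl, 4 mice). The controls had no inescapable shocks but took the same escape test, which itself used foot shocks. These 8 mice were chosen by their group labels from 16, and both other groups, 4 shocked mice that did not become helpless (NLH) and 4 homecage mice (HC), were used for the estimate of spread and as reference values. All mice were male wild type C57BL/6 animals of 3 months. LH and NLH mice received 180 inescapable foot shocks of 0.4 mA on the day before the test, when Ctrl mice were placed in the shuttle box without shocks. The test gave LH, NLH and Ctrl mice 30 trials with an escapable foot shock of 0.4 mA, and HC mice had neither session. Mice given inescapable shocks were divided into LH and NLH afterwards by clustering of escape failures and latency. LH against Ctrl thus contrasts inescapable shock, helpless behavior and, since a test shock ended at escape, the amount of test shock together. Tissue was taken 3 h after the test, both hippocampi of a mouse were pooled, and each mouse gave 1 total RNA library.

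The hippocampus takes part in contextual memory and in the control of the stress hormone response. Its neurons make many proteins from alternative transcripts, since 1 gene can yield several RNAs through alternative starts, splice sites and retained introns. Some of these RNAs encode a different protein, and others, such as retained intron, processed transcript and nonsense-mediated decay types, are annotated as having no complete protein or as targets for degradation. The deposited values are FPKM, which scale the fragments of a transcript by its length and by the size of the library, for 80137 transcripts, which were also summed over the 18287 gene names in the table.

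The 4 LH libraries were not alike. A value of exactly 0 was listed for 6244 and 6852 transcripts in LH1 and LH2, for 10846 in LH3 and for 15504 in LH4, against 4966 to 6178 in the Ctrl mice. Of the genes with a Ctrl mean of at least 1 FPKM, 3 and 4 were listed at 0 in LH1 and LH2, 13 in LH3 and 55 in LH4, against 1 or 2 in the Ctrl mice. Fragments were estimated from the step between low values at 1962 long loci with a single transcript, under an assumed fragment length of 300 bases, at 29180000, 24720000, 25700000 and 20940000 in LH1 to LH4 and at 29700000 to 39580000 in Ctrl mice. The LH libraries also differed among themselves in level: over 10436 genes of at least 1 FPKM, the median log2 difference from the Ctrl mean was 0.21 in LH1, 0.28 in LH2, -0.06 in LH3 and -0.27 in LH4. In each of them it was lower in the 20% of genes with the highest GC content than in the 20% with the lowest, from 0.16 to -0.26 in LH3, and from -0.03 to -0.50 in LH4, while the Ctrl medians lay between -0.10 and 0.07. In bulk tissue, fewer cells of a type and less RNA per cell cannot be told apart. The part of these library properties in single results was not tested beyond the values given below without LH mice, with size factors or with a correction for GC content.

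**Figure D1:**
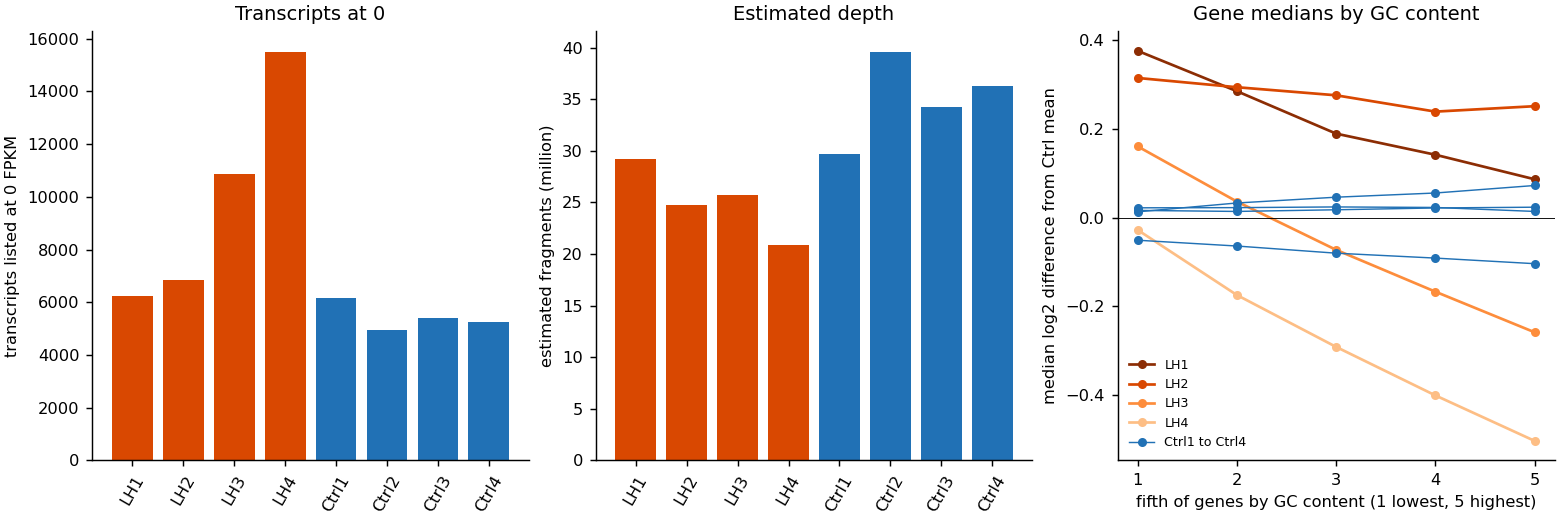
Library properties of the 8 mice. The panels give, per mouse, the number of transcripts listed at 0, the estimated number of fragments, and the median log2 difference of gene names from the Ctrl mean by class of GC content, each of 20% of genes; LH3 and LH4 hold the most zeros (10846 and 15504), and LH4 lies lowest in the highest GC class (-0.50).

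Transcripts were compared first. With limma on log2(FPKM + 0.1) over all 16 mice, 19 transcripts (0.0237% of those tested) were higher and 18 (0.0225%) lower in LH than in Ctrl mice at an adjusted p below 0.05. LH and Ctrl values did not overlap for any of the 37, so that LH1 and LH2 also lay beyond every Ctrl mouse. Over all transcripts, 2.36% lay above and 3.56% below the Ctrl mice without overlap. The lack of overlap fixed in advance that all 37 keep their direction without LH3 and LH4. Of the 37, 24 still passed the adjusted threshold then, when 331 transcripts (0.413%), 232 higher and 99 lower, passed in all. That split turned with scaling, to 97 higher and 204 lower with size factors and to 100 higher and 687 lower with the GC correction. The 13 that did not pass then were those of Rnf31, Suclg1, Nol4, Enah, Gtf2i, Dnal1, Syncrip, Psmd2, Csnk1d, Fez1, Ktn1 and 2810428I15Rik and MSTRG.35277.1. With LH3 and LH4 in place of all 4 LH mice all 37 passed, among 4236 transcripts (5.29%), 828 higher and 3408 lower. Of the 37, 28 no longer passed without LH3 alone, 27 to 32 without any 1 Ctrl mouse, 29 with the 8 LH and Ctrl mice alone, 25 with a pseudocount of 1 and 9 with the GC correction. The count over all transcripts was not stable either: leaving out any 1 LH or Ctrl mouse moved it to between 12, without Ctrl1, and 310, without LH2. At the unadjusted p below 0.05, 4.16% of transcripts were higher and 6.54% lower (3337 and 5242). This excess of lower transcripts turned to 7681 higher and 3741 lower without LH3 and LH4 and to 5212 and 4670 without LH4 alone, and it was 4722 and 4846 with size factors and 2809 and 6035 with the GC correction.

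The annotated types of the called transcripts were counted without a test. Of all 80137 transcripts, 32299 were protein coding, 13112 had a retained intron and 19274 had no GENCODE record. Of the 19 that rose, 10 were annotated as protein coding, 4 were of noncoding types and 5 were assembled by the study without a GENCODE record. Of the 18 that fell, 6 were protein coding and 12 noncoding, 6 of these with a retained intron. Lengths were known only with a GENCODE record, so the 5 assembled transcripts among those that rose are left out here. The median length was 1490 bases among the others that rose and 722.5 bases among the 18 that fell. Of these, 4 and 12, respectively, were shorter than 1000 bases. Each of the 37 belonged to a gene or locus with other listed transcripts, and in 23 of them the summed rest of the gene lay in the opposite direction.

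What sets a transcript apart from the others of its gene is often a single splice junction. The sequences below are read across a junction that the called transcript holds and that the other transcripts of its gene with a GENCODE record lack. Assembled transcripts without such a record had no positions and were not compared. For a retained intron, the sequence crosses the start of an intron that another transcript of the gene splices out. The bases before the junction are in lower case, and those that follow it, or the first bases of the retained intron, are in capitals. They are 5′ to 3′ from GENCODE transcripts on GRCm38, the build also called mm10, and are shown for transcripts whose values are given next.
Set: ctctcggccctccagAAAAAGAACAGCAAG
Gnas: tgggtttaacggagaTGAGAAGGCCACTAA
Slc12a5: ctacatgatttccagACTCTGGTTGGCAAG
Gtf2i: agtataacattcaagATGATGACTATTCTC
Dnal1: gcaaccgccggaatgAATTTCAAAGAAAGA
Naca: ctcaggctgagacagGATCGGGAACAGAGT
Rora: gatctctccagccagGTGACTTTATAATCT
Serpinb6a: ccgtgacgcagccaaGCTCACCATCATGGA
Pdlim5: taagcagcaaaatggGAAAATTCCACCTAA
Csnk1d: acaccaacggccgctGTACGGACATTGCTG
Mmp16: ccgggcgacggccggGAAACAGGGAGTGGA
Suclg1: cgcgcaccttcctccGGCATGAGATCGCCA
Rnf31 (retained intron): caacagtcccttaagGTAACCTGTTCCTGG

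Transcripts of Gnas, Slc12a5 and Set were among those that rose. Gnas encodes the stimulatory G protein alpha subunit that couples receptors to adenylyl cyclase. Its transcript ENSMUST00000109084.7 was at 79.2, 47.4, 60.2 and 55.8 FPKM in LH1 to LH4 and at 24.7, 26.7, 26.8 and 23.5 FPKM in Ctrl1 to Ctrl4. The difference was 1.23 ± 0.18 (log2, SE) with limma adjusted p = 0.0321. The intron that this transcript alone contains among those with a GENCODE record, chr2:174334285-174341652, spans 2 exons of other Gnas transcripts. Every LH mouse was above every Ctrl mouse, and the rest of the gene was at 114 FPKM in Ctrl and 100 FPKM in LH on average. This transcript held 38.8% ± 9.43 (SD, n = 4) of the gene's FPKM in LH mice and 18.2% ± 0.759 (SD, n = 4) in Ctrl mice.

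Slc12a5 encodes the neuronal chloride exporter KCC2, which keeps GABA inhibitory. ENSMUST00000202479.3, a short form of 1202 bases and 7 exons, was at 12.1, 13.6, 13.3 and 11.4 FPKM in LH mice and at 6.66, 3.99, 6.00 and 5.06 FPKM in Ctrl mice (log2 difference 1.22 ± 0.17 SE, limma adjusted p = 0.0299). Its own intron, chr2:164976461-164999198, spans 23 exons of the other transcripts. Its share of Slc12a5 was 36.7% ± 3.92 against 17.9% ± 3.55 (SD, n = 4 each), and the other transcripts together were at 22.0 FPKM in LH and 24.9 FPKM in Ctrl. Every LH mouse was above every Ctrl mouse for the short form.

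Set encodes a histone chaperone that also inhibits protein phosphatase 2A. Its noncoding processed transcript ENSMUST00000125824.7 was at 15.6, 14.4, 21.9 and 12.8 FPKM in LH and at 7.31, 6.33, 7.17 and 6.56 FPKM in Ctrl mice (log2 difference 1.2 ± 0.17 SE, limma adjusted p = 0.0299). It made up 60.4% ± 12.7 of Set in LH mice and 33.7% ± 3.14 in Ctrl mice (SD, n = 4 each). Its own junction joins the ends of chr2:30062776-30068268. NLH mice were at 10.6 to 15.8 FPKM, overlapping the LH mice and above all Ctrl mice, whereas HC mice were at 5.27 to 7.07 FPKM.

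Transcripts of Gtf2i, Naca, Dnal1 and Asah1 rose as well. Gtf2i encodes the transcription factor TFII-I, and ENSMUST00000173888.7 was at 9.72, 7.66, 8.51 and 10.6 FPKM in LH and 2.17, 2.64, 4.32 and 3.34 FPKM in Ctrl mice (log2 difference 1.55 ± 0.24 SE, limma adjusted p = 0.0336). Naca encodes the alpha subunit of the nascent polypeptide-associated complex, which binds new proteins at the ribosome. ENSMUST00000073868.7, which held 98.3% of Naca in LH and 97.1% in Ctrl mice, was at 29.3, 24.9, 26.0 and 23.4 FPKM in LH and 17.1, 17.4, 17.0 and 18.4 FPKM in Ctrl mice (log2 difference 0.56 ± 0.09 SE, limma adjusted p = 0.039). Naca was thus the case in which the called transcript stood for nearly the whole gene. Dnal1 encodes a dynein light chain, and ENSMUST00000046340.8 was at 7.38, 6.59, 10.5 and 7.70 FPKM in LH against 1.05, 1.46, 1.65 and 2.56 FPKM in Ctrl mice (log2 difference 2.24 ± 0.35 SE, limma adjusted p = 0.036). Asah1 encodes acid ceramidase of the lysosome, and its retained intron transcript ENSMUST00000126561.7 was at 3.78, 4.21, 3.76 and 3.87 FPKM in LH and 1.51, 1.62, 1.2 and 2.01 FPKM in Ctrl mice (log2 difference 1.27 ± 0.16 SE, limma adjusted p = 0.0229). In each of these 4 genes the lowest LH mouse was above the highest Ctrl mouse.

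For other transcripts that rose, the Ctrl level was at or near 0 in at least some mice, so that no fold is given. Fez1 encodes an adaptor of kinesin transport in axons, and ENSMUST00000163816.7 was at 5.72, 3.31, 7.86 and 8.53 FPKM in LH mice, at 0.00215 FPKM or less in Ctrl1 to Ctrl3 and at 0.462 FPKM in Ctrl4 (limma adjusted p = 0.0392). Enah, a regulator of actin filament growth, had 4.13, 2.09, 3.72 and 7.05 FPKM of ENSMUST00000111025.7 in LH and 0.00448, 0.00804, 0.835 and 0.29 FPKM in Ctrl mice (limma adjusted p = 0.0321). The protease inhibitor gene Serpinb6a had 0.998, 0.559, 1.88 and 4.98 FPKM of ENSMUST00000168350.7 in LH mice and under 0.001 FPKM in all Ctrl mice (limma adjusted p = 0.0321). In Fez1 and Enah all NLH mice were also above all Ctrl mice, at 2.89 to 10.4 and at 1.70 to 4.92 FPKM, while Serpinb6a was under 0.001 FPKM in every NLH mouse. Below a mean of 1 FPKM, transcripts of Rora, a nuclear receptor, Syncrip, an RNA-binding protein, Ktn1, the kinesin-binding membrane protein kinectin, and Smg1, the kinase of nonsense-mediated decay, rose as well. Their LH values ranged from 0.0985 FPKM in Smg1 to 1.67 FPKM in Rora, and no Ctrl mouse was above 0.133 FPKM.

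Of the 5 transcripts without a GENCODE record, MSTRG.27375.1 at the locus of 2900011O08Rik had the highest level, at 23.5, 26.0, 24.2 and 31.6 FPKM in LH and 12.2, 17.8, 13.0 and 13.1 FPKM in Ctrl mice (log2 difference 0.91 ± 0.13 SE, limma adjusted p = 0.0299). MSTRG.35277.1, at the locus of the nuclear long noncoding RNA Malat1, was at 3.51, 3.09, 4.24 and 4.81 FPKM in LH and 2.09, 1.64, 1.81 and 1.61 FPKM in Ctrl mice (log2 difference 1.08 ± 0.17 SE, limma adjusted p = 0.0343), and held 0.148% of that locus in LH and 0.0751% in Ctrl mice. MSTRG.77797.2, which has no gene name, was at 4.05, 4.33, 3.38 and 4.51 FPKM in LH and 2.21, 1.55, 1.99 and 2.34 FPKM in Ctrl mice (log2 difference 0.98 ± 0.16 SE, limma adjusted p = 0.0492). All 3 lay higher in every LH mouse than in any Ctrl mouse. MSTRG.9379.1 at the Baz2a locus, of a mean below 1 FPKM, was at 0.223 to 0.902 FPKM in LH and at 0.000101 FPKM or less in Ctrl mice.

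Many of the transcripts that fell were at or near 0 in LH mice, as their values show. Pdlim5 encodes a PDZ and LIM domain scaffold of the postsynaptic cytoskeleton, and its transcript ENSMUST00000168967.8 had the lowest limma adjusted p of the comparison (0.000104). It was at 0.718, 0.894, 1.2 and 1.08 FPKM in Ctrl mice and at 0.0175 FPKM or less in all LH mice. NLH mice were at 0.641 to 0.860 FPKM and HC mice at 0.520 to 0.970 FPKM, so that LH was the single group of the 4 at or near 0. Its own intron, chr3:142304723-142312122, spans 2 exons of other transcripts, and these others were at 3.33 FPKM in LH and 3.05 FPKM in Ctrl on average.

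Transcripts of Itsn1 and Osbpl9 fell. Itsn1 encodes intersectin 1, a scaffold of clathrin-coated pits, and its processed transcript ENSMUST00000124094.7 was at 4.94, 6.00, 8.61 and 1.28 FPKM in Ctrl mice and under 0.001 FPKM in all LH mice (limma adjusted p = 0.000545). It held 31.8% ± 15.2 (SD, n = 4) of Itsn1 in Ctrl mice. Osbpl9 encodes an oxysterol-binding protein relative, and ENSMUST00000160271.7 was at 1.26, 2.69, 0.928 and 0.528 FPKM in Ctrl and under 0.001 FPKM in LH mice (limma adjusted p = 0.0229). The other transcripts were higher on average in LH than in Ctrl mice in both genes, at 12.7 against 10.3 FPKM for Itsn1 and 6.68 against 5.18 FPKM for Osbpl9.

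Transcripts of Csnk1d, Mmp16, Dvl2 and Iqce fell as well. Csnk1d encodes casein kinase 1 delta, which acts in the circadian clock, and ENSMUST00000154483.7 was at 2.01, 8.47, 5.02 and 4.81 FPKM in Ctrl mice and at 0.166 FPKM or less in LH mice (limma adjusted p = 0.039). Mmp16 encodes a membrane-bound matrix metalloproteinase, and ENSMUST00000142434.7 was at 0.326, 0.505 and 0.487 FPKM in LH1, LH2 and LH4, under 0.001 FPKM in LH3, and at 4.27, 2.25, 2.56 and 2.58 FPKM in Ctrl mice (log2 difference -3.06 ± 0.45 SE, limma adjusted p = 0.0321). The Wnt pathway gene Dvl2 had 0.559, 0.531, 1.63 and 2.07 FPKM of its retained intron transcript ENSMUST00000152732.1 in Ctrl mice and under 0.001 FPKM in LH mice (limma adjusted p = 0.0229). No LH mouse reached the lowest Ctrl value in these 3 genes. Iqce had 0.662, 1.39, 2.42 and 0.756 FPKM of ENSMUST00000148788.1 in Ctrl mice and was listed at 0 in all LH mice (limma adjusted p = 0.0229).

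Transcripts of Rnf31, Adarb2, R3hdm2 and 2810428I15Rik were also lower. Rnf31 encodes the catalytic subunit of the linear ubiquitin ligase complex, and ENSMUST00000133903.1, which retains the intron at chr14:55595302-55595469, was at 2.48, 2.30, 1.44 and 1.18 FPKM in Ctrl mice, at 0.228 FPKM in LH2 and under 0.001 FPKM in the other LH mice (limma adjusted p = 0.0321). Adarb2 encodes an RNA-binding relative of the RNA editing enzymes, and ENSMUST00000139438.1 was at 0.723, 0.583, 0.475 and 0.604 FPKM in LH and 1.37, 1.73, 1.94 and 1.63 FPKM in Ctrl mice (log2 difference -1.34 ± 0.20 SE, limma adjusted p = 0.0321). Adarb2 was the case among those that fell in which all 4 LH mice kept a clear level. R3hdm2 had 0.245, 0.462 and 0.182 FPKM of ENSMUST00000168268.1 in LH1 to LH3, 0 in LH4, and 2.38, 1.83, 1.90 and 2.18 FPKM in Ctrl mice (limma adjusted p = 0.039). ENSMUST00000135773.7 of 2810428I15Rik was at 1.94, 1.97, 0.825 and 1.07 FPKM in Ctrl and under 0.001 FPKM in LH mice (limma adjusted p = 0.039).

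Suclg1 encodes the alpha subunit of succinate-CoA ligase of the citric acid cycle. Its nonsense-mediated decay transcript ENSMUST00000123159.7 was at 3.36, 6.91, 5.29 and 8.35 FPKM in Ctrl mice, at 1.51 FPKM in LH2 and at 0.00363 FPKM or less in the other LH mice (limma adjusted p = 0.0321). It was the single transcript of the 37 that also passed between NLH and Ctrl mice (limma adjusted p = 0.0146), where 0.0125% of all transcripts passed, with every NLH mouse at 0.00563 FPKM or less. The gene's other transcripts were at 17.7 FPKM in LH and 13.8 FPKM in Ctrl on average. ENSMUST00000164893.7 of Nol4 was at 0.596 FPKM in LH1, at 0.0439 FPKM or less in the other LH mice, and at 2.35, 2.21, 1.15 and 2.23 FPKM in Ctrl mice (limma adjusted p = 0.0321). The remaining transcripts that fell, of the chaperonin subunit Cct4, the ciliary transport gene Ift46, the mitochondrial RNA-binding gene Lrpprc, the proteasome subunit Psmd2 and Arpp21, had means below 1 FPKM. Their Ctrl values ran from 0.138 to 0.902 FPKM, and no LH mouse was above 0.113 FPKM.

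**Figure D2:**
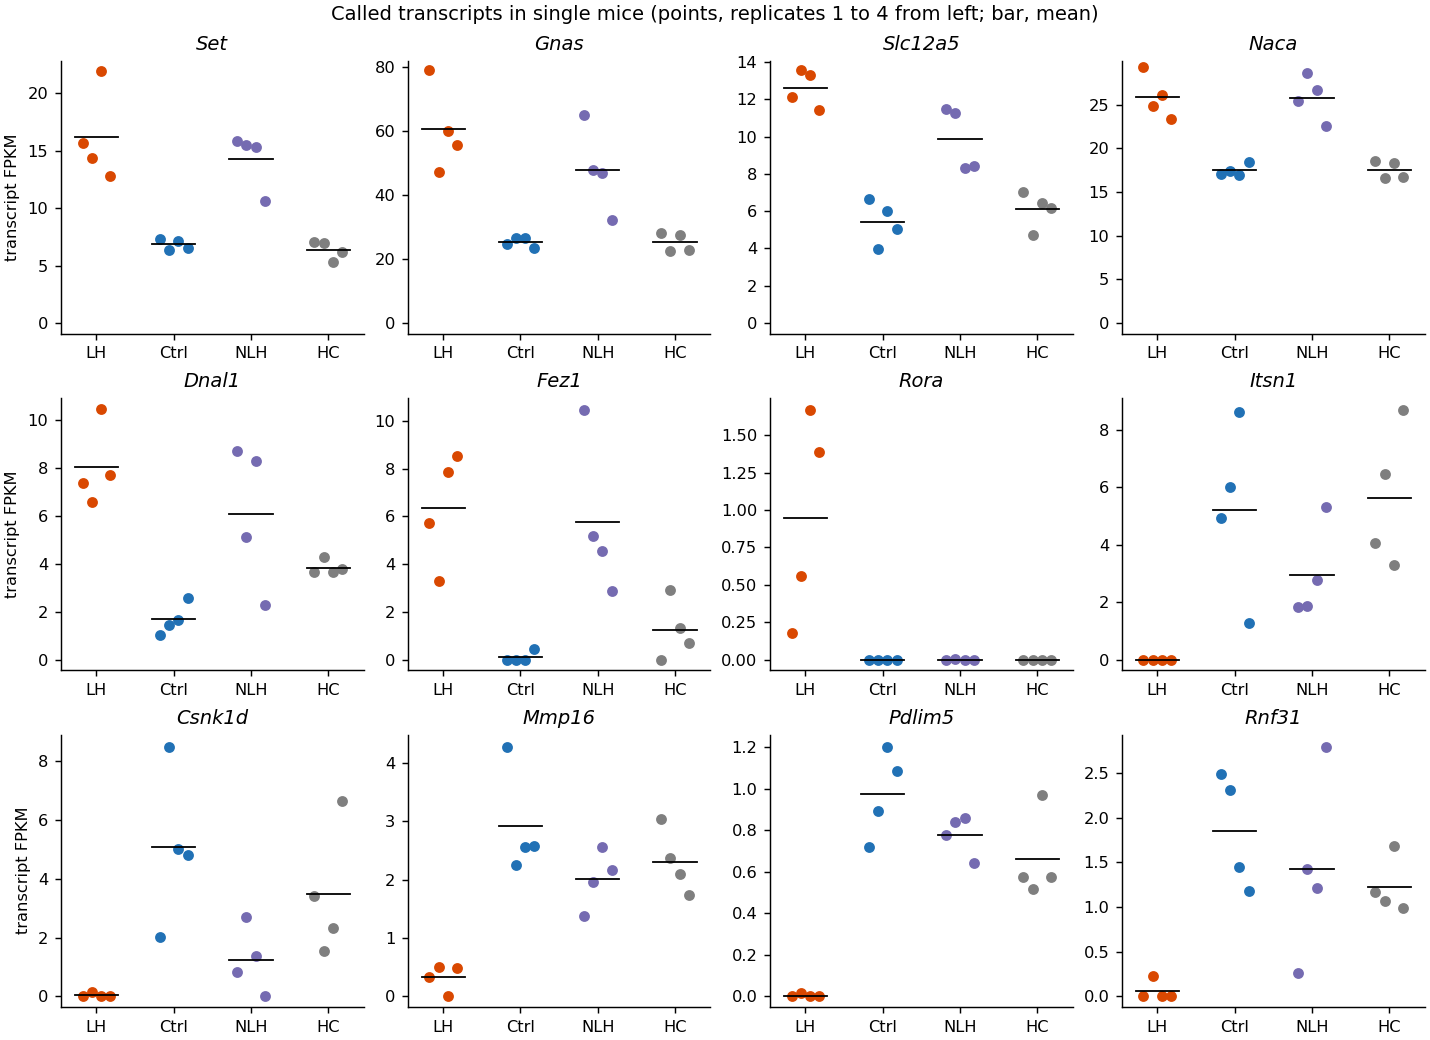
FPKM of 12 of the 37 transcripts in the 4 groups of mice. Each point is 1 mouse and each bar the group mean; the Set transcript is at 12.8 to 21.9 FPKM in LH and 6.33 to 7.31 FPKM in Ctrl mice, and the Itsn1 transcript is under 0.001 FPKM in all LH mice.

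The share of a gene's FPKM held by the called transcript did not overlap between LH and Ctrl mice in 36 of the 37, where the exact permutation test gave 0.0286, the smallest p that 4 against 4 mice allow. For Asah1 the exact permutation p was 0.0571. The transcripts were selected for a difference in their own level, so this share is not a separate line of evidence.

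The 37 transcripts were next compared with shocked mice that did not become helpless. In a test of LH against NLH mice, 12 of the 37 passed the adjusted threshold, as did 0.0412% of all transcripts. The same LH values chose the 37 and enter this test, so the 12 are not read against that share. Transcripts of Serpinb6a, Rora, Smg1 and Ktn1 and MSTRG.9379.1 were higher in LH than in NLH mice, and those of Pdlim5, Itsn1, Osbpl9, Iqce, Dvl2, Cct4 and Nol4 were lower. The log2 differences between LH and NLH were -3.07 for Pdlim5 (limma adjusted p = 0.000331), -4.80 for Itsn1 (0.00231), 3.04 for Rora (0.0248) and 4.04 for Serpinb6a (0.0236). The other 25 did not pass, among them Set, Gnas, Slc12a5, Naca, Dnal1, Gtf2i and Fez1, whose NLH values are not shown by this to equal the LH values. Against homecage mice, 25 of the 37 passed in LH (0.14% of all transcripts) and 0 of the 37 passed between Ctrl and HC (0.00374% of all transcripts). These comparisons share the LH or the Ctrl mice with the one that chose the transcripts, so these counts are not independent of each other.

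Across all transcripts of at least 1 FPKM on average, the annotated types are described beside all 22595 such transcripts, of which 8.35% were higher and 7.09% lower at an unadjusted limma p below 0.05. No test between types was run. Retained intron transcripts (2044) had median log2 differences from the Ctrl mean of -0.10, -0.05, -0.16 and -0.16 in LH1 to LH4, below 0 in all 4 mice, whereas Ctrl medians were between -0.005 and 0.018. At the same p, 14.5% of them were lower and 4.45% higher in LH. Protein-coding transcripts (11917) had medians of 0.28, 0.32, -0.04 and -0.33, with 3.66% lower and 10.6% higher. The antisense transcripts (115) were likewise below 0 in every LH mouse, at -0.10, -0.16, -0.12 and -0.09, and 17.4% of them were lower and 4.35% higher. The medians of the coding and nonsense-mediated decay types (407; 0.24, 0.31, -0.08 and -0.36) differed in sign between the pair LH1 and LH2 and the pair LH3 and LH4. So did those of processed transcripts (0.01, 0.19, -0.08 and -0.32) and lincRNAs (0.02, 0.09, -0.07 and -0.08). Without LH3 and LH4, over all transcripts of each type, 361 retained intron transcripts were higher and 824 lower, against 5229 and 554 coding ones and 7681 and 3741 of all types. Without LH1 and LH2, 662 retained intron transcripts were higher and 2351 lower, 1969 and 5810 coding ones, and 5562 and 12445 of all types, so that lower calls outnumbered higher ones in both types. The retained intron medians of NLH1 to NLH4 were -0.10, -0.001, -0.012 and -0.024, also below 0 in every mouse. Whether sense and antisense reads were separated in counting is not stated, so an antisense transcript and its partner cannot be told apart here.

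**Figure D3:**
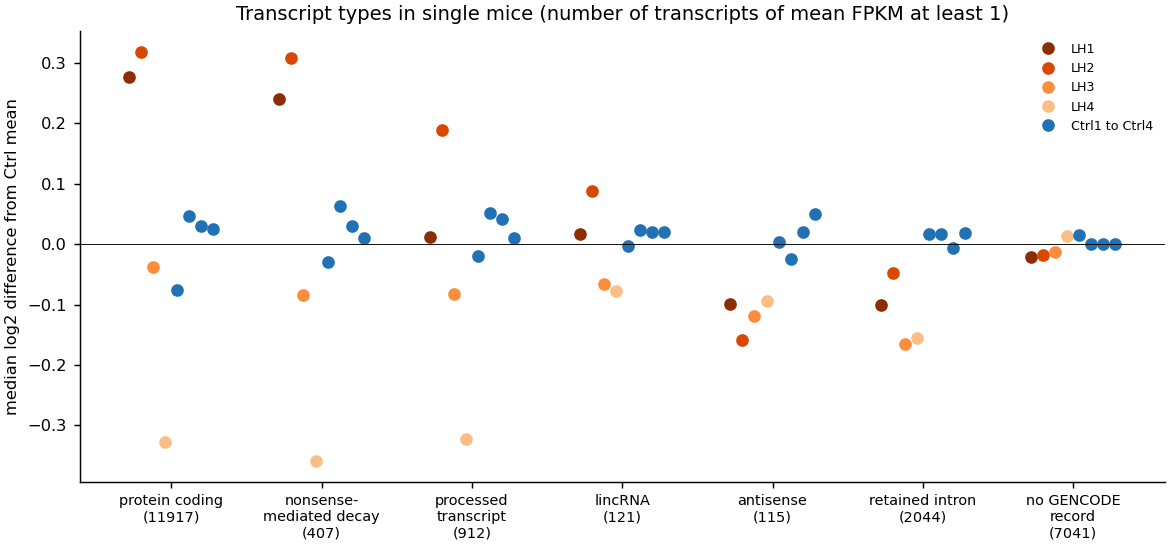
Median log2 difference from the Ctrl mean for each mouse by annotated transcript type, over transcripts of at least 1 FPKM on average. Retained intron transcripts lie below 0 in all 4 LH mice (-0.05 to -0.16), and protein-coding ones run from 0.32 in LH2 to -0.33 in LH4.

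By gene name, no gene (0.0% of 18287) passed the adjusted limma threshold. At an unadjusted p below 0.05, 1286 genes (7.03%) were higher and 821 (4.49%) lower in LH, a split that turned to 1308 and 1588 with median-ratio size factors and to 944 and 1454 with a correction for GC content. No overlap was found for 741 genes above (4.05%) and 281 below (1.54%) the Ctrl mice. Of those with a mean of at least 1 FPKM, 657 and 103 were above and below, and the 10 of lowest p in each direction are described here.

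The genes higher in LH are given first. Dnal1 was at 18.1, 13.8, 17.1 and 14.3 FPKM in LH and 6.57, 9.05, 7.43 and 8.52 FPKM in Ctrl mice (log2 difference 1.00 ± 0.14 SE, limma adjusted p = 0.0517). The nucleosome assembly gene Nap1l1 was at 26.0, 22.4, 23.5 and 19.2 FPKM in LH and 12.0, 14.7, 12.6 and 13.2 FPKM in Ctrl mice (log2 difference 0.79 ± 0.13 SE, limma adjusted p = 0.0584). Elavl4, a neuronal protein that stabilizes mRNA, was at 12.5, 9.33, 12.2 and 9.72 FPKM in LH and 6.09, 6.65, 6.49 and 5.65 FPKM in Ctrl mice (log2 difference 0.80 ± 0.13 SE, limma adjusted p = 0.0584). None of these passed the adjusted threshold with all mice, although the groups did not overlap. Lztfl1, which regulates traffic into cilia, was at 11.9, 8.20, 8.97 and 9.50 FPKM in LH and 5.76, 5.03, 5.15 and 5.50 FPKM in Ctrl mice (limma adjusted p = 0.0623), and NLH mice were at 5.34 FPKM ± 0.905 (SD, n = 4). Naca (limma adjusted p = 0.0623), Wdr47 and the chaperone Hspa4l (0.0705 each), and Ptp4a1, Paip2 and the cyclophilin Ppid (0.12 each) completed the 10. None of the 10 passed between LH and NLH mice (limma adjusted p values of 0.0978 to 1), and NLH means were 15.05 FPKM for Dnal1, 26.3 FPKM for Naca and 20.7 FPKM for Paip2, beside LH means of 15.8, 26.4 and 22.2 FPKM. These 10 had limma adjusted p values of 0.0156 to 0.0306 without LH3 and LH4, but none passed then with size factors (0.104 to 0.396) or with the GC correction (0.0654 to 0.430). With all mice and size factors Dnal1, Nap1l1, Naca, Wdr47 and Hspa4l passed. With all mice and the GC correction Dnal1, Nap1l1 and Naca passed, and the log2 differences of Ptp4a1, Paip2 and Hspa4l were 0.23, 0.32 and 0.33 in place of 0.49, 0.53 and 0.53.

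Among the genes lower in LH, Rnf31 was at 2.34, 2.91, 1.79 and 1.80 FPKM in LH and 4.84, 4.66, 5.55 and 3.57 FPKM in Ctrl mice (log2 difference -1.05 ± 0.22 SE, limma adjusted p = 0.12). The splicing factor Srrm2 was at 13.7, 14.7, 16.5 and 13.1 FPKM in LH and 22.3, 23.8, 21.4 and 25.1 FPKM in Ctrl mice (log2 difference -0.67 ± 0.14 SE, limma adjusted p = 0.128). The synaptic adhesion gene Tenm2 was at 8.84, 6.84, 5.23 and 3.95 FPKM in LH and 12.8, 15.4, 25.3 and 11.9 FPKM in Ctrl mice (log2 difference -1.37 ± 0.30 SE, limma adjusted p = 0.131). In Rnf31 and Tenm2 the lowest 2 values were those of LH3 and LH4, and in Srrm2 LH3 was the highest LH mouse. Plch2, a phospholipase C, Car7, a neuronal carbonic anhydrase, Gm26592, Prrc2a, Mir124a-1hg, the host gene of a brain microRNA, H6pd and BC046401 had limma adjusted p values of 0.135 to 0.139. The 10 lower genes had limma adjusted p values of 0.0342 to 0.122 without LH3 and LH4, with Srrm2 and Gm26592 past the threshold. Neither passed then with size factors (0.068 and 0.116) or with the GC correction (0.0683 and 0.108), nor did any other of the 10. With all mice, Rnf31, Tenm2, Plch2, Car7, Prrc2a and H6pd passed with size factors, and Rnf31, Plch2 and Car7 with the GC correction.

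The number of genes called was recomputed with either pair of LH mice left out. Without LH3 and LH4, 951 genes were higher and 38 lower at the adjusted threshold, and the median difference of all genes was 0.19. Without LH1 and LH2 instead, 253 were higher and 1562 lower, with a median of -0.20. Without LH4 alone the counts were 175 higher and 16 lower, and without LH3 alone 1 and 0. When the 16 libraries were rescaled by median-ratio size factors, 21 genes were higher and 28 lower with all mice, and 8 and 5 without LH3 and LH4. With a correction for GC content, 15 were higher and 10 lower with all mice, and 8 and 7 without LH3 and LH4. At the unadjusted p, the counts without LH3 and LH4 were 4100 higher and 347 lower without rescaling, 1074 and 1165 with size factors, and 912 and 1456 with the GC correction, so leaving out LH3 and LH4 changed the split without rescaling, while lower genes outnumbered higher ones with and without these mice under either correction.

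**Figure D4:**
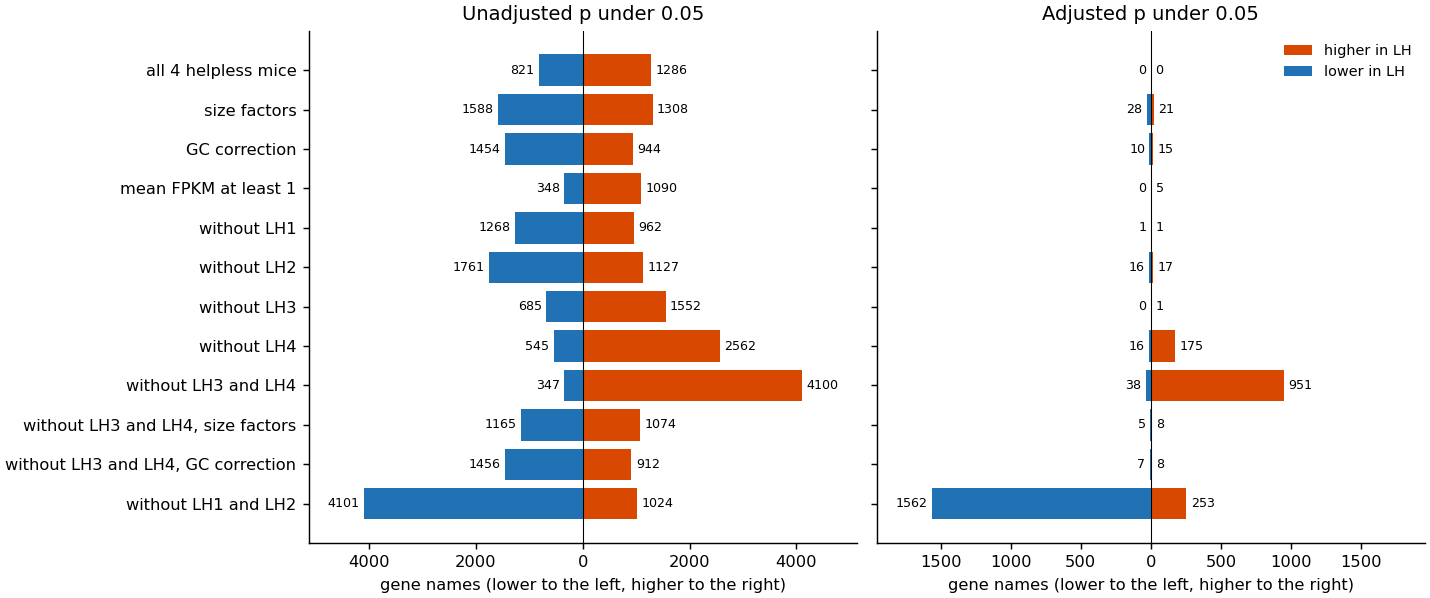
Number of gene names higher and lower in LH than in Ctrl mice at unadjusted and limma adjusted p below 0.05 under different choices of LH mice and scaling. With all mice, 1286 are higher and 821 lower at the unadjusted p and 0 at the adjusted p; without LH3 and LH4, 951 are higher and 38 lower at the adjusted p.

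Retention of the calls without either pair is given as counts, since leaving out a pair also moved the median of all genes by 0.19 or -0.20 and retention moves with that shift. Of the 821 genes lower at the unadjusted p, 24.1% were listed at 0 in both LH3 and LH4 and 11.8% in both LH1 and LH2, and 27.2% stayed below 0.05 without them, against 82.0% without LH1 and LH2. Of the 1286 higher genes, 77.8% stayed below 0.05 without LH3 and LH4, and 47.4% without LH1 and LH2. Among transcripts, 13.6% of the 5242 lower ones were at 0 in both LH3 and LH4 and 5.42% in both LH1 and LH2, and 37.7% stayed below 0.05 without LH3 and LH4, against 60.3% of the 3337 higher ones. Without LH1 and LH2, 72.8% of the lower and 58.8% of the higher transcripts stayed below 0.05. The higher genes had a median GC content of 44.6% and the lower ones 52.2%, beside 49.8% for all genes. By an equal-variance t statistic on FPKM without adjustment, which the study's methods describe, 2320 transcripts (2.93%) were higher and 3874 (4.89%) lower. This split turned to 7697 higher and 3253 lower without LH3 and LH4.

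Lists of genes for hippocampal functions were then examined by gene name. No member of any of the 17 lists passed the adjusted threshold, so the following are values at the unadjusted limma p, beside 7.03% higher and 4.49% lower among all genes and a median log2 difference of 0.00 for all gene names. Of 16 measured heat shock chaperones, which help proteins fold, 8 were higher and none lower at this p, with a median of 0.24. Hspa4 was at 27.0, 24.8, 19.6 and 29.6 FPKM in LH and 16.7, 18.5, 18.1 and 18.6 FPKM in Ctrl mice (limma adjusted p = 0.131). Hsp90aa1 was at 219, 223, 175 and 158 FPKM in LH and 139, 148, 145 and 155 FPKM in Ctrl mice (limma adjusted p = 0.197), and Hspd1 had a limma adjusted p = 0.229. All LH mice were above all Ctrl mice in each of these 3. For Hspd1, LH mice were at 11.7 to 16.3 FPKM and Ctrl mice at 8.06 to 10.8 FPKM. Its HC mice (10.2 to 17.6 FPKM) and NLH mice (11.8 to 17.1 FPKM) overlapped the LH mice. For Hspa4 and Hsp90aa1, HC mice were below all LH mice, at 17.5 to 18.5 FPKM and at 143 to 149 FPKM. Hsp90aa1 had a log2 difference of 0.39, which was 0.18 without LH1 and LH2 and 0.20 with the GC correction. The list's median was 0.45 without LH3 and LH4, 0.02 without LH1 and LH2, beside 0.19 and -0.20 for all genes, 0.21 with size factors and 0.14 with the GC correction. Of its genes, 15 were higher without LH3 and LH4, beside 4100 of all 18287 genes. Without LH1 and LH2, 1 was higher and 4 lower, beside 1024 and 4101 of all genes.

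Of 19 measured genes for cholesterol synthesis and uptake, 5 were higher and none lower at the unadjusted p, with a median of 0.21. Msmo1 and Hmgcs1, which encode enzymes of the pathway, had log2 differences of 0.39 and 0.30 (limma adjusted p = 0.253 and 0.353), which were 0.23 and 0.13 with the GC correction and 0.23 and 0.15 without LH1 and LH2. The median was 0.37 without LH3 and LH4, 0.01 without LH1 and LH2, 0.18 with size factors and 0.13 with the GC correction. Of these genes, 12 were higher without LH3 and LH4, beside 4100 of all 18287 genes. Without LH1 and LH2, 1 was higher and 2 lower, beside 1024 and 4101 of all genes.

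Synaptic gene lists are given next. None of 14 ionotropic glutamate receptor genes reached the unadjusted p in either direction (median -0.00). Of 7 metabotropic receptors Grm8 did, at 4.09, 3.73, 4.25 and 4.49 FPKM in LH and 2.79, 3.10, 3.10 and 2.07 FPKM in Ctrl mice (limma adjusted p = 0.139). Of 14 genes for GABA-A receptors and chloride transport 1, Gabrg1, was higher (median 0.11, and -0.05 with the GC correction). Release machinery (25 genes, 1 higher and 1 lower, median 0.02), clathrin endocytosis (25, 2 and 0, 0.04) and postsynaptic scaffold and adhesion genes (23, 4 and 0, 0.02) were also within 0.05 of the median of all genes. When LH3 and LH4 were left out, 4 to 13 genes of each of these 6 lists were higher and none lower at the unadjusted p (5 ionotropic receptor genes and 13 release genes), beside 4100 higher of all genes. When LH1 and LH2 were left out, 1 to 10 genes of each list were lower (7 ionotropic receptor genes), beside 4101 of all genes. The medians of the 6 lists then ran from 0.19 to 0.26 and from -0.28 to -0.02, beside 0.19 and -0.20 for all genes. Among scaffold genes Lrrtm2, Dlg2 and Homer1 had log2 differences of 0.57, 0.33 and 0.31. They were 0.31, 0.16 and 0.074 with the GC correction and 0.49, 0.15 and 0.16 without LH1 and LH2. The log2 difference of Gabrg1 was 0.33, and 0.079 with the GC correction.

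Among 15 voltage-gated calcium channel genes 3 were higher and 2 lower (4 and 1 without LH3 and LH4, 2 and 5 without LH1 and LH2). For this and the next 2 lists, the reference is all 18287 genes. Of these, 4100 were higher and 347 lower without LH3 and LH4 (median 0.19), and 1024 and 4101 without LH1 and LH2 (median -0.20). Cacna1h, a T-type channel, was at 2.35, 4.68, 2.82 and 4.76 FPKM in LH and 5.98, 5.74, 7.66 and 8.95 FPKM in Ctrl mice (log2 difference -0.98, limma adjusted p = 0.139), and no LH mouse reached the lowest Ctrl mouse. Of 22 plasticity kinases and phosphatases, 3 were higher and 1 lower (13 and 0 without LH3 and LH4, 1 and 7 without LH1 and LH2), the higher ones being Prkar2b, a regulatory subunit of protein kinase A, and the calcineurin subunits Ppp3r1 and Ppp3cb (log2 differences 0.44, 0.30 and 0.33). These were 0.24, 0.084 and 0.094 with the GC correction and 0.32, 0.17 and 0.19 without LH1 and LH2, and the list's median of 0.10 was 0.03, 0.28 and -0.05 with the GC correction and without each pair. Of 55 chromatin modifiers, 3 were higher and 1 lower, with 14 and 2 (median 0.19) without LH3 and LH4 and 3 and 16 (median -0.07) without LH1 and LH2. Smarca2, an ATPase of the SWI/SNF complex, was at 46.0, 39.2, 44.0 and 41.7 FPKM in LH and 28.7, 33.7, 31.4 and 33.6 FPKM in Ctrl mice (limma adjusted p = 0.186), and Setd5 had a log2 difference of -0.33.

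Stress-related and housekeeping lists follow. Beside them, of all 18287 genes, 4100 were higher and 347 lower without LH3 and LH4 (median 0.19). Without LH1 and LH2, 1024 of all genes were higher and 4101 lower (median -0.20). Of 15 immediate early genes, which mark recent neuronal activity, 1 was lower, Junb, which was listed at 0 in all LH, NLH and HC mice and in Ctrl1 and Ctrl2, and at 0.142 and 0.133 FPKM in Ctrl3 and Ctrl4. The list's median of 0.04 was 0.32 (5 higher) without LH3 and LH4 and -0.28 (2 lower) without LH1 and LH2. Of 17 glucocorticoid receptors and targets, 2 were higher, among them Plin4, and 2, Hif3a and Zbtb16, were lower (median -0.02, or 0.11 without LH3 and LH4 and -0.20 without LH1 and LH2). Among 24 lysosomal genes 3 were higher, led by Asah1 at 9.75, 8.85, 7.61 and 12.8 FPKM in LH and 6.35, 6.00, 5.64 and 5.79 FPKM in Ctrl mice (limma adjusted p = 0.12). Without LH3 and LH4, 14 lysosomal genes were higher and 0 lower (median 0.30), and without LH1 and LH2 1 was higher and 9 lower (median -0.29). Cytosolic ribosomal proteins (76 genes, 9 higher and 4 lower, median 0.04) and respiratory chain subunits (71, 7 and 1, 0.06) lay near the median of all genes. Their medians were 0.29 and 0.33 without LH3 and LH4 (30 and 41 genes higher) and -0.17 and -0.19 without LH1 and LH2 (23 and 26 lower). Nuclear long noncoding RNAs (13 genes) had 2 higher, Tug1 and Snhg6, and 1 lower, Miat, at 18.8, 18.4, 12.3 and 15.4 FPKM in LH and 22.0, 20.6, 23.1 and 22.5 FPKM in Ctrl mice (limma adjusted p = 0.168). The log2 difference of Tug1, 0.27, was 0.011 with the GC correction and 0.037 without LH1 and LH2, and that of Miat, -0.46, was -0.24 without LH3 and LH4. With all mice and size factors, the medians of the 17 lists ran from -0.06 to 0.21, beside -0.03 for all gene names.

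**Figure D5:**
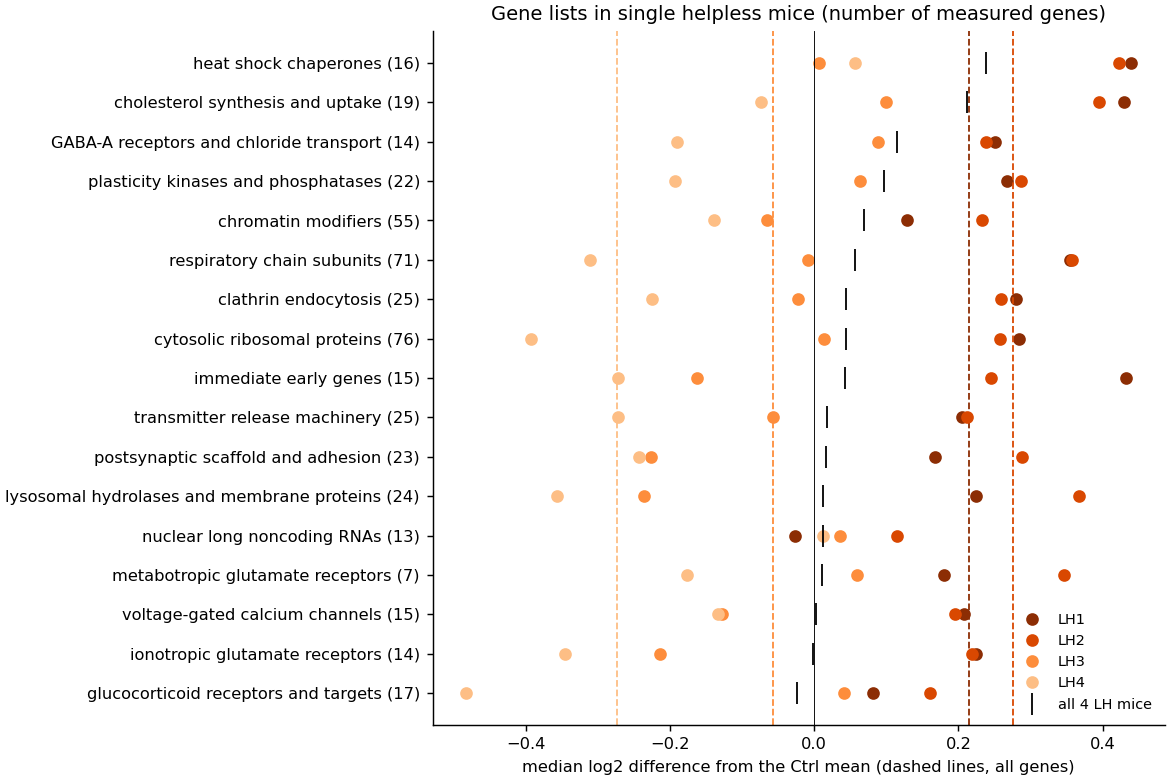
Median log2 difference from the Ctrl mean of 17 gene lists in each LH mouse. Points are the LH mice, black ticks the medians fitted over all 4, and dashed lines the median of all genes of at least 1 FPKM in that mouse (0.21, 0.28, -0.06 and -0.27 in LH1 to LH4); the heat shock and cholesterol lists had fitted medians of 0.24 and 0.21.

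Cell type markers checked the labelled tissue. All 13 hippocampal neuron markers were measured (2 higher and 2 lower at the unadjusted p, median -0.27, or 0.11 without LH3 and LH4 and -0.44 without LH1 and LH2), and no marker of any list was listed at 0 in all 8 mice. Summed choroid plexus markers ran from 2.65 to 106.5 FPKM in LH and from 20.2 to 59.2 FPKM in Ctrl mice, with a median difference of 1.42 without LH3 and LH4 and of -1.82 without LH1 and LH2. Summed red blood cell markers were at 144 to 459 FPKM in LH and 217 to 308 FPKM in Ctrl mice. Of 10 striatum markers 3 were higher, among them Drd1 and Six3, with Drd1 at 1.34, 1.14, 1.35 and 1.41 FPKM in LH and 0.803, 0.839, 0.817 and 0.77 FPKM in Ctrl mice (limma adjusted p = 0.139). Their summed level was 16.9 to 29.6 FPKM in LH and 17.4 to 20.02 FPKM in Ctrl mice. The medians of interneuron, oligodendrocyte, astrocyte, microglia, endothelial and thalamus markers were 0.14, 0.12, -0.02, -0.09, 0.07 and 0.30. They were 0.31, 0.36, 0.24, 0.16, 0.32 and 0.88 without LH3 and LH4, and without LH1 and LH2 -0.08, -0.16, -0.30, -0.24, -0.18 and -0.01. The thalamus median was 1.41 in LH1 and 0.35, -0.17 and 0.15 in LH2 to LH4, with a summed level of 35.0 FPKM in LH1 and 13.4 to 16.3 FPKM in the others. The part of tissue composition in the transcript results was not tested.

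None of the 37 transcripts was annotated as a lincRNA or an antisense transcript. Of 4365 long noncoding transcripts measured, 89 (2.04%) were higher and 289 (6.62%) lower at the unadjusted p, beside 4.16% and 6.54% of all transcripts. This split was 184 higher and 169 lower without LH3 and LH4, 222 and 502 without LH1 and LH2, 97 and 268 with size factors and 57 and 373 with the GC correction. Over all 80137 transcripts the split was, in the same order, 7681 and 3741, 5562 and 12445, 4722 and 4846, and 2809 and 6035. Among the 314 with a mean of at least 1 FPKM, 1700020I14Rik had the lowest p, at 54.5, 50.6, 52.6 and 42.2 FPKM in LH and 39.1, 35.6, 36.8 and 36.5 FPKM in Ctrl mice (log2 difference 0.43 ± 0.09 SE, limma adjusted p = 0.121). Rian, from the imprinted Dlk1 region, was at 10.6, 11.6, 21.5 and 17.0 FPKM in LH and 6.06, 7.21, 6.39 and 9.55 FPKM in Ctrl mice (limma adjusted p = 0.132). Gm26592 was at 0.62, 1.16, 0.997 and 0.888 FPKM in LH and 1.66, 1.97, 1.5 and 1.57 FPKM in Ctrl mice (limma adjusted p = 0.142). These 3 did not overlap between the groups. BC046401 and Gm11583 had limma adjusted p values of 0.169 each, and Gm11583 was under 0.001 FPKM in LH1 and in all Ctrl mice. The mean of Gm11583 was 2.98 FPKM in LH mice, 0.123 FPKM in NLH mice and under 0.001 FPKM in HC mice. It thus met the level of 1 FPKM through the LH mice alone.

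Summed FPKM is given here for 7 genes that the study also examined by PCR. Its PCR compared Dlg2 between LH and NLH mice only, and the others between LH and Ctrl mice. Cacnb4, a calcium channel beta subunit, was at 39.8, 28.6, 133 and 15.02 FPKM in LH and 17.0, 11.8, 25.7 and 11.5 FPKM in Ctrl mice, a log2 difference of 1.31 ± 0.46 (SE) with limma adjusted p = 0.289, and LH4 lay below the highest Ctrl mouse. Without LH3, the highest mouse, the difference was 0.72, and without LH3 and LH4 it was 1.11 with limma adjusted p = 0.0474, or 0.87 (0.29) with size factors and 0.90 (0.243) with the GC correction as well. Dlg2, the scaffold PSD-93, was at 54.1, 52.1, 38.0 and 45.6 FPKM in LH and 34.4, 38.7, 37.9 and 39.2 FPKM in Ctrl mice, with LH3 inside the Ctrl range (limma adjusted p = 0.262). Its adjusted p without LH3 and LH4 was 0.02, or 0.12 with size factors and 0.292 with the GC correction as well. Between LH and NLH mice the log2 difference of Dlg2 was 0.075 (limma adjusted p = 0.891). Prkacb, Rab3a, Grik2, Tcf4 and Rbfox2 had log2 differences of 0.16, -0.01, -0.08, -0.04 and 0.02, with limma adjusted p values of 0.635 to 0.996. Prkacb was at 0.35 without LH3 and LH4 (limma adjusted p = 0.0494), or at 0.11 (0.619) with size factors and 0.037 (0.844) with the GC correction as well. In Rab3a, LH1 and LH2 were at 62.5 and 62.2 FPKM and LH3 and LH4 at 47.0 and 45.8 FPKM, on opposite sides of all Ctrl mice (48.8 to 58.5 FPKM).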

How the data were processed

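Total RNA libraries (Vazyme kit, paired reads on a HiSeq) of 16 mouse hippocampi, 4 mice in each of 4 groups, were used. The authors deposited FPKM values for 80137 transcripts, made by Cufflinks on a merged StringTie assembly over mm10; the study's methods name HISAT2 as the aligner and the submitters' processing notes name STAR 2.42a with StringTie 1.2.3. The strand setting and the filter on transcripts are not given in the sources used here, and FPKM holds no counts, so depth was only estimated from value steps (75% to 86% of values within 0.1 of a whole step, against 20% by chance). GENCODE records on GRCm38 (60863 transcripts) gave types, positions and sequences. FPKM was summed by gene name.

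limma 3.58.1 in R 4.3.3 was fitted to log2(FPKM + 0.1) over 16 mice, with trend and robust settings and Benjamini-Hochberg adjustment over 80137 transcripts or 18287 gene names. Fold changes are on this scale and understate those of low values. Shares were compared by a two-sided exact permutation test in scipy 1.17.1. Python 3.11.15 drew the figures. The fit was tested on simulated data. Alternatives were the pseudocount, a filter, size factors, GC correction, weights, each LH or Ctrl mouse left out, LH pairs left out, 8 mice only and a replicate block. The fits without LH1 and LH2, with the GC correction, and with either scaling and without LH3 and LH4 were added after seeing the data. Named items were each transcript past the adjusted threshold, the 10 non-overlapping genes of lowest p in each direction, up to 3 per list, 5 long noncoding transcripts and 7 PCR genes. The members and lists were chosen with earlier results of these data known. P-values measure the spread between mice as labelled. Some named items are not reported here.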

Additional observations from a re-analysis of the deposited data

Results flagged for a closer look

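In each group of 4 mice, values were examined for a highest or lowest mouse whose gap to the nearest other was beyond Dixon's critical value as a share of the range. Chance gives about 1 such group in 20, and 15 of 238 groups were found. Among transcripts these were Ctrl2 in MSTRG.27375.1 (17.8 FPKM), LH2 in Rnf31 (0.228 FPKM), Suclg1 (1.51 FPKM), Csnk1d (0.166 FPKM) and Ktn1 (0.181 FPKM), Ctrl1 in Mmp16 (4.27 FPKM), LH1 in Cct4 (0.113 FPKM) and Nol4 (0.596 FPKM), Ctrl3 in Nol4 (1.15 FPKM), Ctrl4 in Fez1 (0.462 FPKM) and Ctrl2 in Ktn1 (0.133 FPKM). Among genes they were Ctrl2 in Paip2 (16.9 FPKM) and Ctsl (7.85 FPKM), Ctrl3 in Neurod6 (27.4 FPKM) and LH2 in Bcl11b (11.5 FPKM).

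The shocked groups differed from each other in 12 of the 37 transcripts, by the limma test of LH against NLH. The log2 differences on the log2(FPKM + 0.1) scale were 4.04 for Serpinb6a, 3.04 for Rora, 2.96 for Ktn1, 2.30 for MSTRG.9379.1 and 2.26 for Smg1. They were -3.07 for Pdlim5, -4.80 for Itsn1, -3.24 for Osbpl9, -3.98 for Iqce, -3.45 for Dvl2, -2.53 for Cct4 and -3.67 for Nol4. For each of these, LH or NLH was at or near 0 in at least some mice, so the size depends on the pseudocount.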

How the results depend on the processing

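The count of transcripts past the adjusted threshold (37) depended on the processing. It was 65 with a pseudocount of 0.01, 14 with 1, 66 among transcripts with a mean of at least 1 FPKM, 133 with median-ratio size factors, 58 with the GC correction and 5 with sample weights. Without LH3 and LH4 it was 331, or 301 with size factors and 787 with the GC correction, and without LH1 and LH2 it was 4236. Leaving out each LH or Ctrl mouse gave 12 to 310, with 131, 310, 19 and 67 without LH1, LH2, LH3 and LH4 and 12 to 23 without a Ctrl mouse. The cause of these changes was not tested. Each of the 37 kept its direction under the settings fitted for single transcripts, which were all but the sample weights and the filter at 1 FPKM. For settings that only left out mice or changed the pseudocount, the lack of overlap fixed this in advance.

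The count of genes past the adjusted threshold (0) was 5 with a pseudocount of 0.01 and 5 among genes of at least 1 FPKM, 49 with size factors, 25 with the GC correction, 2 with the 8 mice alone and 968 with sample weights. Without LH3 and LH4 it was 989, or 13 with size factors and 15 with the GC correction, and without LH1 and LH2 it was 1815. Leaving out each LH or Ctrl mouse gave 0 to 191. At the unadjusted p, 1286 higher genes became 3217 with weights and 4100 without LH3 and LH4, and 865 (without Ctrl1) to 2562 (without LH4) without single mice. The 821 lower genes became 348 among genes of at least 1 FPKM, 1588 with size factors, 491 with the 8 mice alone, 539 with weights, 1454 with the GC correction, 347 without LH3 and LH4 (1456 with the GC correction) and 4101 without LH1 and LH2, and 545 to 1761 without single mice.

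By the unadjusted t statistic of the methods, 6194 transcripts became 2738 among those of at least 1 FPKM (1167 lower), 10950 without LH3 and LH4 (7697 higher) and 11220 without LH1 and LH2 (3750 higher, 7470 lower), with 1503 (without Ctrl1) to 4545 (without LH4) higher without single mice. The transcripts without overlap, 4692, were 1980 among those of at least 1 FPKM. With size factors the share of higher calls by this statistic was 48.0% in place of 37.5%.

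Replicate numbers were not treated as pairs in the main fit. The correlation of deviations between same-numbered LH and Ctrl libraries was -0.06 to 0.05 over transcripts and -0.07 to 0.12 over genes. It was thus not above 0.1 in every pair, which cannot show whether mice of the same number shared a cage, day or sequencing run. With the number as a replicate block, 5 transcripts and 0 genes passed. Of 119 named results, 61 kept their direction and side of the threshold without LH3 and LH4. Of the rest, 42 newly passed, 41 of them genes, 13 no longer passed and 3 turned in sign. The medians of the 27 lists ran from 0.06 to 1.42 without LH3 and LH4 (0.24 for metabotropic glutamate receptors and 0.55 for striatum markers) and from -1.82 to 0.04 without LH1 and LH2 (-0.08 for interneuron markers).

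Signs turned among the genes examined by PCR and for Chd8, none of which passed the adjusted threshold with all mice. Chd8 was at -0.043 (GC correction) and -0.046 (size factors) without LH3 and LH4, and Prkacb at -0.036 without LH1 and LH2. Rab3a was at 0.20 without LH3 and LH4, 0.074 with the GC correction, 0.038 with both, and -0.084 to 0.065 without single mice. Grik2 was at 0.12 without LH3 and LH4 and -0.15 to 0.043 without single mice, and Tcf4 at 0.020 and -0.083 to 0.012. Rbfox2 was at -0.018 with size factors, -0.24 without LH1 and LH2, and -0.083 to 0.12 without single mice. FPKM holds no counts, so limits of depth could not be given per value.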
